A study of Mus musculus with 18 samples.

Results

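BMAL1 binding at the cryptochrome genes Cry1 and Cry2 was described in liver, kidney and heart of mice. Sites were taken as peaks whose centre lay inside either gene or within 10 kb of either end, which gave 11 of the 11366 peaks in 3 lists. The liver list gave 4 of its 4813 peaks, the kidney list 3 of 4034 and the heart list 4 of 2519. The lists came from chromatin immunoprecipitation and sequencing (ChIP-seq) of wild type C57BL/6 animals aged 3 to 6 months, kept with free access to food under a daily cycle of 12 h light and 12 h dark. Tissues of the same 3 mice were collected 6 h after lights on, fixed with formaldehyde and precipitated with a chicken antibody raised against the amino-terminal domain of mouse BMAL1. Each tissue had 3 ChIP and 3 input libraries, 18 in all, and the authors pooled all of them into 1 list per tissue. No value per animal was held, so the scores and ranks below have no error between mice and no test between tissues. The 3 heart input libraries carried a source label naming kidney, against their titles, and its effect on the heart list was not tested. Whole tissues were used, so a site occupied in fewer cells and a site occupied more weakly in every cell cannot be told apart. Peak lists hold no expression, so the labelled tissues were not checked against marker genes.

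BMAL1 pairs with CLOCK and binds E-boxes, short DNA elements in the control regions of circadian genes, where the pair switches transcription on. CRY1 and CRY2, flavin-binding proteins related to the photolyases that repair DNA, enter the nucleus with PER proteins and repress the CLOCK and BMAL1 pair. The cryptochrome genes are thus targets of BMAL1, and their proteins its inhibitors, in the clock's negative feedback loop, and Cry1 is also known for control through D-boxes and ROR elements.

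Both genes had strong sites close to their start, present in every list, and Cry2 had a further, stronger site inside the gene. Cry1 lies on chromosome 10 from 85131700 to 85185054 and Cry2 on chromosome 2 from 92403646 to 92434085 (mm10, GRCm38), both on the minus strand. Merging peaks that overlapped by at least 1 bp left 5 regions at the genes, 3 at Cry1 and 2 at Cry2. Of these, 1 region at Cry1 and 2 at Cry2 had a peak in all 3 tissues. The other 2, both at Cry1, had a peak in a single tissue. Across all annotated genes, the same rule gave a liver peak at 11.8%, a kidney peak at 11.3% and a heart peak at 7.22%. A peak in each of the lists was found at 2.55% of genes, and 1.88% had a region common to all 3 lists. A gene with 2 or more common regions, as at Cry2, was found in 0.0981% of cases (49 of 49943 genes) and in 0.174% of protein-coding genes. The exact 95% interval of the first share, 0.0726 to 0.13%, treats genes as independent draws, although all were counted and neighbours can share a peak. The cut of 2 is the count at Cry2 itself, so these shares are a description and not a test.

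The stretches of DNA immediately before the start sites are shown because the start-site peaks fell on or beside them. They are RefSeq promoter sequences of GRCm38.p6, read 5′ to 3′ on the minus strand, with matches to the E-box CACGTG and the E-box-like element CACGTT on either strand in capitals (AACGTG is CACGTT read on the other strand).
Cry1, chr10:85185055-85185304, the 250 bases before the start site: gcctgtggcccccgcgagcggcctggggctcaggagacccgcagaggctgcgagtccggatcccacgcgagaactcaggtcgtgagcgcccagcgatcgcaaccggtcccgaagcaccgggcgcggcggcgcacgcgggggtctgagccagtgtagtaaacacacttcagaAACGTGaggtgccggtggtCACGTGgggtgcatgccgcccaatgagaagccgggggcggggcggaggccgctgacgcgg
Cry2, chr2:92434086-92434319, the 234 bases before the outermost annotated start: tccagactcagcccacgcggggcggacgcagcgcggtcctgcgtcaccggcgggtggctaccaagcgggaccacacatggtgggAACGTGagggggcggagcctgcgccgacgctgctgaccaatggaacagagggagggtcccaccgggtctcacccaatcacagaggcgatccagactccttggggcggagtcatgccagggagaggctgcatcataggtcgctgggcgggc

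**Figure D1:**
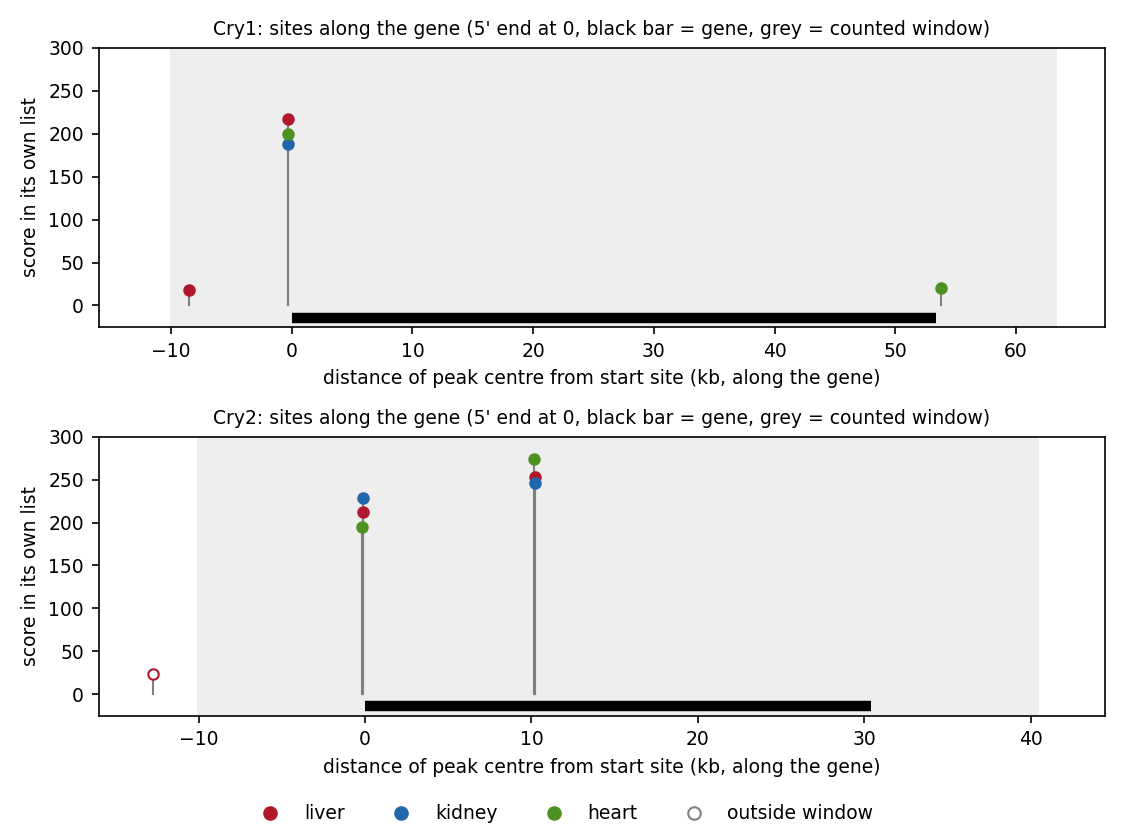
BMAL1 sites at Cry1 (top) and Cry2 (bottom). The x axis is the distance of the peak centre from the start site in kb along the gene, the y axis the authors' score in that tissue's own list, colours are tissues, the black bar is the gene and the grey area the counted window. Markers from all 3 lists stack just upstream of each start and at about 10.2 kb inside Cry2, while the 2 other filled markers at Cry1 score 18 and 20 and the open marker, a liver peak 12.7 kb outside Cry2, lies beyond the window.

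At Cry1, the site shared by the tissues lay just upstream of the start. The liver peak (chromosome 10, 85185261 to 85185502) scored 217 and ranked 35 of 4813. In kidney the peak (85185291 to 85185478) scored 188 and ranked 27 of 4034. The heart peak (85185291 to 85185488) scored 200 and ranked 24 of 2519. The score is a whole number given by the authors whose scale is not known, so it was used only within a list. In every list this was the highest-scoring peak of chromosome 10, which held 255 liver, 230 kidney and 141 heart peaks.

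The 3 Cry1 peaks lay almost exactly on each other. The liver centre was 327 bp upstream of the start site, the kidney centre 330 bp and the heart centre 335 bp, a spread of 8 bp. Over the 519 regions common to all lists the median spread was 27 bp, and 5.2% of regions had a spread of 8 bp or less. The nearest other peak of the same list was 8.17 kb away for the liver peak, 264 kb for the kidney peak and 54.1 kb for the heart peak. The median distance from a peak to its nearest neighbour was 45.1 kb over the liver list, 66.3 kb over the kidney list and 159 kb over the heart list. The Cry1 site thus stood farther from other peaks than that median in kidney and nearer in liver and heart. In liver and heart the nearest peak was a weak single-tissue peak at Cry1, with a score of 18 in liver and 20 in heart.

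Cry2 had its strongest site in the gene body. The liver peak (chromosome 2, 92423748 to 92423989) scored 253 and ranked 19. The kidney peak (92423786 to 92423973) scored 246 and ranked 9, and the heart peak (92423793 to 92423990) scored 274 and ranked 7. It was the highest-scoring peak of chromosome 2 in kidney and heart and the second there in liver. The centres lay 10201, 10190 and 10178 bp downstream of the Cry2 start site in liver, kidney and heart. This position is also inside D930015M05Rik, a long non-coding RNA gene on the opposite strand whose limits fall within Cry2, so the site cannot be given to Cry2 alone. Whether it lay in an exon or an intron was not determined here.

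The second Cry2 site lay at the start of the gene. It scored 212 in liver (92434066 to 92434307, rank 39), 229 in kidney (92434114 to 92434301, rank 15) and 195 in heart (92434128 to 92434325, rank 25). Upstream of the start site, the liver centre was at 117 bp, the kidney centre at 138 bp and the heart centre at 157 bp. The spread of 40 bp was larger than at the other shared cryptochrome sites, which had 8 and 23 bp, and 69.4% of common regions had a spread of 40 bp or less. The 2 Cry2 sites were 10318 bp apart by their liver peaks, 10328 bp by those of kidney and 10335 bp by those of heart.

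**Figure D2:**
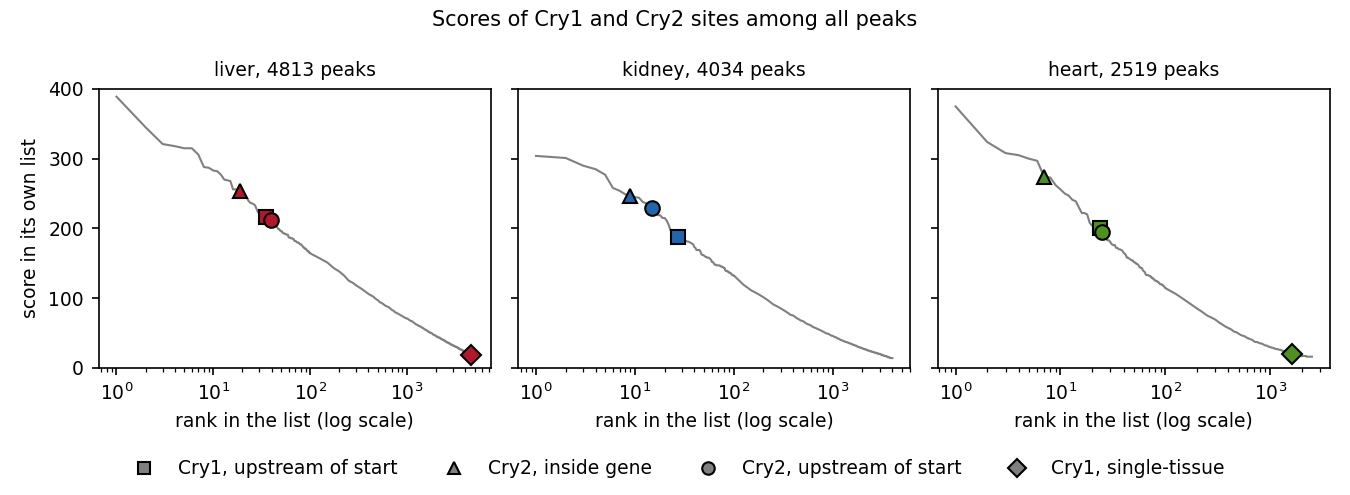
Score of each Cry1 and Cry2 peak (y axis, the authors' score) against its rank in the list (x axis, log scale), 1 panel per tissue, with a grey line for all peaks of that list. The Cry2 site inside the gene (triangle) stands above both start-site peaks in every panel, and the 2 single-tissue Cry1 peaks (diamonds) sit near the bottom in liver and heart.

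Within each list the Cry2 site inside the gene scored highest of the 3 shared sites. It exceeded the Cry2 start-site peak by 41 in liver, 17 in kidney and 79 in heart, and the Cry1 start-site peak by 36, 58 and 74. The order of the start-site peaks of Cry1 and Cry2 differed between lists. Cry1 was above Cry2 by 5 in liver and by 5 in heart, and 41 below it in kidney. Between the scores of the start-site peaks lay 2 other liver peaks, 11 kidney peaks and 0 heart peaks. Without values per animal, none of these orders could be set against the spread between mice. By mean rank over the 3 lists the Cry2 site inside the gene was number 11 of the 519 common regions, the Cry2 start-site region number 21 and the Cry1 start-site region number 22. Peaks of common regions had a median score of 99 in the liver list, 76 in the kidney list and 69 in the heart list, below each of the 9 shared cryptochrome peaks in its own list. Among the 39 liver peaks with a score of at least 212, 89.7% were in a common region. Of the 28 kidney peaks scoring at least 188 all were in one, and of the 25 heart peaks scoring at least 195 the share was 96%.

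The remaining peaks, both at Cry1, were weak and found in a single list. A liver peak (85193431 to 85193672) lay 8497 bp upstream of the Cry1 start with a score of 18, near the lowest score of 17 in that list. It shared rank 4543 of 4813 with other peaks of its score, 121 in all, of which 95.9% were found in liver alone. A heart peak (85131200 to 85131397) lay 402 bp beyond the 3′ end of Cry1 and 3271 bp from the nearest end of Mterf2, the next gene, which encodes a mitochondrial transcription termination factor family protein. It scored 20 and shared rank 1624 of 2519 with the peaks of its score, 84 in all, of which 92.9% were found in heart alone. Differences in sensitivity between the lists and single-tissue binding cannot be told apart for such peaks.

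The matches in the promoter windows of Cry1 and Cry2 lay differently against the start-site peaks. The Cry2 window held no CACGTG and 1 CACGTT match, from 166 to 161 bp upstream of the start site, which lay inside the peak in all 3 lists, 46 bp from the centre of the liver peak, 25 bp from that of kidney and 6 bp from that of heart. The Cry1 window held a CACGTT match from 79 to 74 bp and a CACGTG from 60 to 55 bp upstream, with 13 bases between them. Both Cry1 matches lay outside the peaks, which began further upstream. The gap from the CACGTG to the nearer edge of the peak was 147 bp in liver and 177 bp in kidney and in heart. Only 44 bases of the Cry1 window in the liver peak, and 14 in the kidney and heart peaks, could be searched, and these held none of the motifs. The rest of the Cry1 peak and the Cry2 site inside the gene were not searched.

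**Figure D3:**
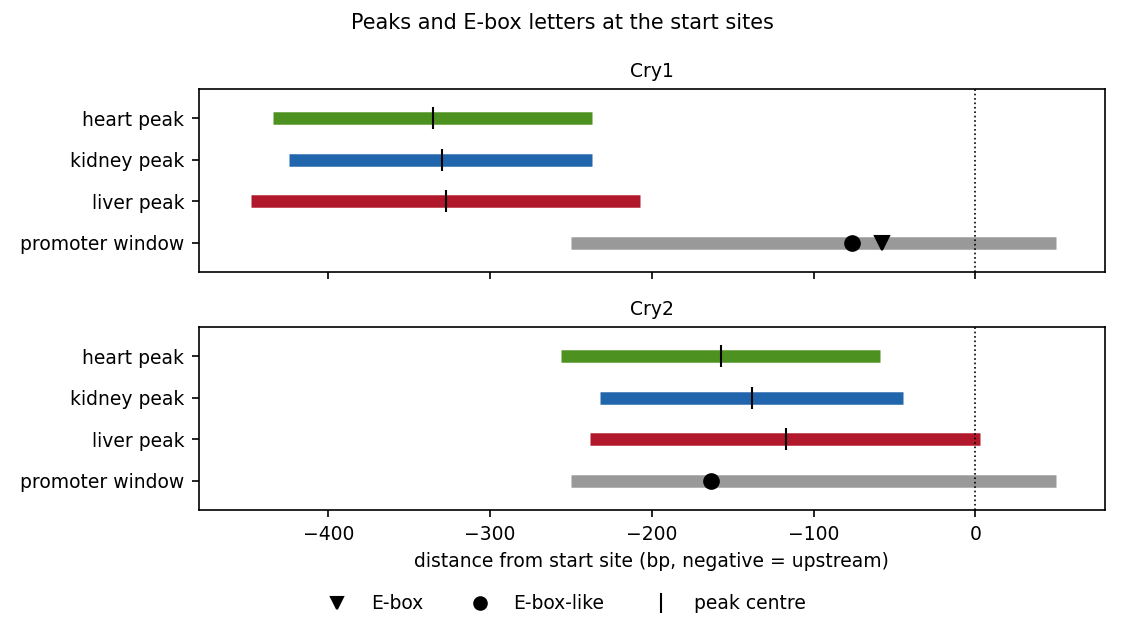
Position of the start-site peaks (coloured bars, with a tick at the centre) and of the 300-base promoter window (grey) relative to the start site, in bp, for Cry1 (top) and Cry2 (bottom). The E-box (triangle) and E-box-like match (circle) of Cry1 lie 55 to 79 bp upstream, to the right of all 3 peaks, whereas the Cry2 match lies under all 3.

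These letters were set against all RefSeq promoter windows of 300 bases, from 250 before to 50 after a start site. Of 32817 windows, 7.15% held CACGTG and 4.69% held CACGTT on either strand, and 0.414% held both, as Cry1 did; that pair was looked at after the Cry1 letters had been seen. Among the 272 windows that a peak overlapped in all 3 lists the shares were 52.6%, 10.7% and 4.78%. Inside and outside were read from the fixed peak widths. A CACGTG lay inside a peak of every list in 84.6% of the 143 overlapped windows that held it, and inside no peak in 4.9% (7 windows), among them Cry1. For CACGTT, 22 of 29 such windows had a match inside a peak of every list, among them Cry2. Neither gene's window held the D-box TTATGTAA (0.935% of all windows) or AGGTCA, the core of ROR elements (16.3%). The overlapped windows were picked by their peaks, and these other letters also fell inside peaks there. Of 35 overlapped windows with AGGTCA, 37.1% had a match inside a peak of every list and 48.6% inside no peak. For the D-box these were 2 and 3 of 5 windows. Only these exact letters within the 300 bases were searched, so other forms or positions of these elements were not covered. The Cry1 window was 72.3% G and C and the Cry2 window 70.3%, against a median of 52.7%.

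The cryptochromes were then placed among genes by the best rank of any peak counted at each gene. Cry2 was number 33 of 5883 genes with a peak in liver, 17 of 5662 in kidney and 12 of 3607 in heart. Cry1 was number 64, 45 and 43. The Cry2 places rest on the peak inside the gene, which also lies inside D930015M05Rik. In liver, kidney and heart the Cry2 start-site peak ranked 39, 15 and 25, and that of Cry1 ranked 35, 27 and 24. Neighbouring genes can be given the same peak, so places among genes fall as windows grow. With a window of 50 kb Cry1 was number 169, 127 and 121 and Cry2 number 92, 57 and 34. Over 951 other protein-coding genes with a peak in every list, the genes closest to Cry1 in rank as a share of list length were Pfkfb3, an enzyme that sets the level of a glycolysis activator, the kinase gene Mapk6 and the clock repressor gene Bhlhe41. Their summed differences over the 3 lists were 0.358, 0.458 and 0.519 percentage points. The closest to Cry2 were Per3, whose protein is a PER family member, and its neighbours Vamp3 and Gm38529, all counted through the same peaks at ranks 25, 11 and 8, with a summed difference of 0.214 points.

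Other genes of the cryptochrome pathway were read in the same way. Their list was chosen with earlier results of these data known, so its counts beside the shares of all genes are a description and not a test. Of 27 listed genes, 17 had a liver peak, 17 a kidney peak and 17 a heart peak, against the shares of all genes above. A region common to all 3 lists was found at 14. Over protein-coding genes, the liver share was 18.1%, the kidney share 18%, the heart share 11.5% and the common-region share 3.09%. As at Cry2, 2 or more common regions were found at 9 of the 27, against 0.174% of protein-coding genes. Among partners of the CRY proteins, Per1 (best ranks 4, 7 and 9 in liver, kidney and heart), Per2 (28, 14 and 13) and Per3 had a common region, while Clock had a peak in heart alone, Arntl in kidney alone and Npas2 in no list. Of 4 listed genes for ubiquitin enzymes and proteases, 1 had a common region. Fbxl21, which encodes an F-box protein that binds CRY, had a peak in heart alone at rank 2215. Ddb1 had peaks in liver and kidney (ranks 865 and 286), and Usp7, a deubiquitinase, had none. The deubiquitinase gene Usp2 had 3 common regions and best ranks of 108, 67 and 134. Of 5 kinase genes, Prkaa2, encoding a catalytic subunit of AMPK, had 1 liver peak at rank 4329. Prkaa1, Csnk1d, Csnk1e and Gsk3b had no peak in the 3 lists. A liver peak at 1 of 5 kinase genes is near the 18.1% of protein-coding genes that had one. All 6 other repressor genes had a common region, with Nr1d1 at rank 1 and Nr1d2 at rank 2 in every list and Bhlhe40 at ranks 14, 17 and 11. Nfil3 was lowest of these in each list, at ranks 57, 203 and 464. Among activators acting through D-boxes and ROR elements, 4 of 6 had a common region, with Dbp at ranks 3, 4 and 3 and Tef at 8, 5 and 6. Rora had a peak in every list, at ranks 1408, 1037 and 1826, but no common region, and Rorb had no peak.

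**Figure D4:**
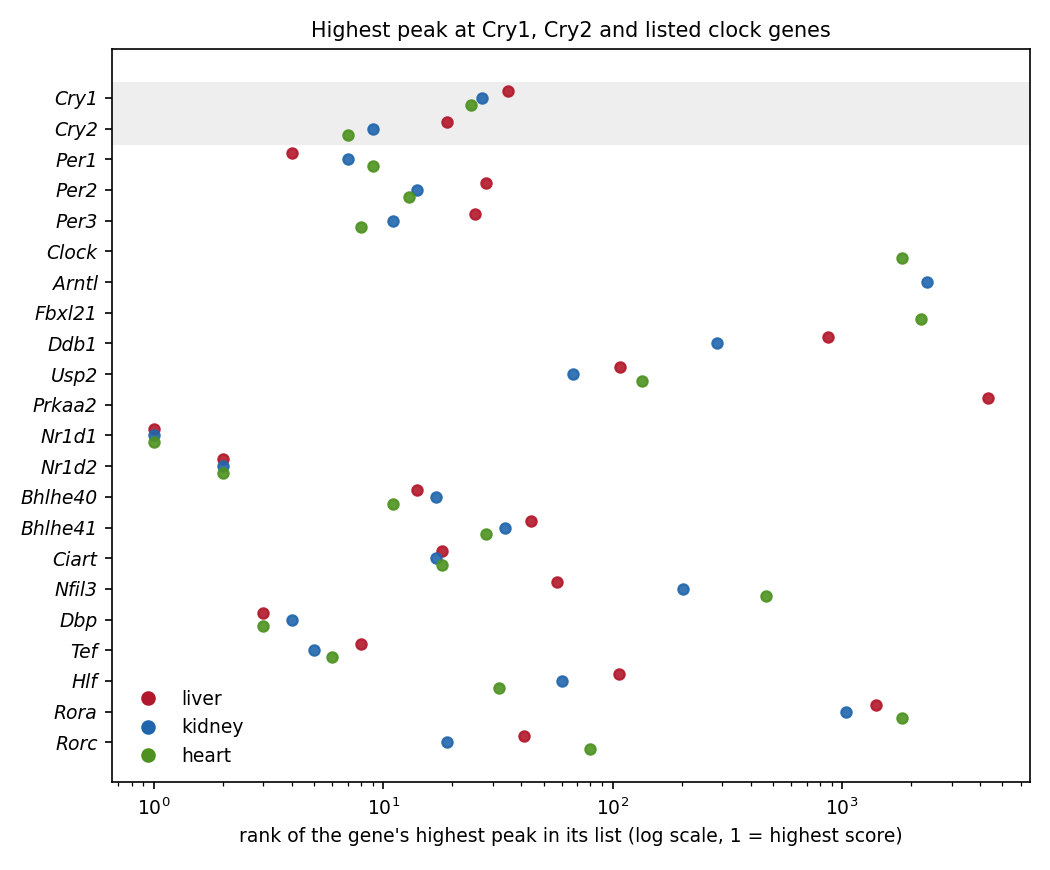
Rank of the highest peak at Cry1 and Cry2 (grey band) and at the listed pathway genes with at least 1 peak, on a log scale where 1 is the highest score in the list, with 1 point per tissue. Cry1 lies between ranks 24 and 35 and Cry2 between 7 and 19; Fbxl21, Clock, Arntl and Prkaa2 have a single point each, at rank 1826 or below it in the order.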

How the data were processed

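BMAL1 ChIP and input libraries of liver, kidney and heart were grouped from their titles. Per the labels, each peak list pools a tissue's ChIP and input libraries, and the submitters' processing notes name Bowtie2, SAMtools, HOMER and build mm10, without role or version. Each list gives position, name and a whole-number score that the authors deposited, with no statement of its meaning or scale in the sources used here. Read depth is unknown, and a deeper or better enriched pool can list more weak peaks.

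From these lists, ranks were taken by score, with the best rank for ties, and peaks of different lists were joined when they overlapped by 1 bp. Genes and promoter windows came from RefSeq tables of GRCm38.p6, and both genes matched by symbol. Distances from a start site use that of the promoter table, which for Cry2 lies 16 bp inside the annotated gene. Distances from a gene or from its end use the annotated limits of the gene, also for the peaks beyond the 10 kb limit. Coordinates count from 1. Exact Clopper-Pearson intervals used scipy 1.17.1. The peak assignment was tested on simulated data. Named genes were both members, their nearest neighbours, the 3 genes most like each in rank and the pathway genes. Among pathway genes, values were given for the 6 of best mean rank. Values for Per2, Per3, Usp2, Nfil3, Rora and genes with peaks in 1 or 2 lists were chosen after they were seen. A listed item is not reported here. Members, lists and motifs were chosen with earlier results of these data known. Alternatives covered the window, overlap, score threshold, ties, gene set and motif letters.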

Additional observations from a re-analysis of the deposited data

How the results depend on the processing

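All alternatives were applied to the pooled lists. The 18 alternative ranks of the highest sites stayed within 1.5 times the ranks given, and 10 of 12 alternative counts of common regions did. The site ranks could hardly move, since at most 2 peaks shared each score and most peaks scoring as high were in common regions. Of 12 alternative places among genes, 5 stayed within 1.5 times the places given. Counting only centres inside a gene left 0 regions and 0 common regions at Cry1 and 1 region, common to the 3 lists, at Cry2, since the start-site centres lie outside the annotated genes. The upper 50% of each list and the top 1000 peaks left 1 region at Cry1. With protein-coding genes only, Cry1 was number 42 in liver, and a liver peak was found at 18.1% of genes, a kidney peak at 18% and a heart peak at 11.5%, with a common region 3.09% and with 2 or more 0.174%. A 50 kb window moved the place among genes to 169, 127 and 121 for Cry1 and to 92, 57 and 34 for Cry2 in liver, kidney and heart, since more genes are then given each peak. Searching CACGTG or CACGTT raised the share of promoters with a match from 7.15% to 11.4%. No paired analysis was possible because replicates were pooled before the lists were made, and for the same reason no replicate could be left out.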

Other observations

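Beyond the 10 kb limit, 2 further peaks lay within 50 kb of the genes, and both were weak and found in a single tissue. A liver peak (chromosome 2, 92446666 to 92446907) with a score of 24 lay 12701 bp upstream of Cry2 and 5978 bp from the nearest end of Slc35c1, which encodes the GDP-fucose transporter. It shared rank 3823 of 4813 with 138 peaks of its score in all. A heart peak (chromosome 10, 85103401 to 85103598) with a score of 20 lay inside Tmem263, 28201 bp from Cry1. The peak shared rank 1624 of 2519 with the others of that score, 84 in all, of which 92.9% were found in heart alone. With it and the peak beyond the 3′ end of Cry1, the heart list held 2 peaks of the same score on that side of the gene, where the liver and kidney lists held none within 50 kb.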
